A study of Rattus norvegicus with 4 samples.

Results

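The calcitonin gene peptides and their receptors were followed in RT4D6 cells after knockdown of the transcription factor Sox10, which specifies and maintains glia of the neural crest lineage. The 8 genes are Calca, Calcb and Adm, which encode the peptides, Calcrl, which encodes the receptor, Ramp1, Ramp2 and Ramp3, which encode its partner proteins, and Crcp, which encodes an intracellular component of the receptor. They are 8 of the 14217 genes that the array's annotation names alone on a probe set. Every probe set whose annotation gave exactly 1 of these symbols was taken, which gave 11 of the 31042 probe sets on the array once controls were left out. Calca had 3 probe sets, Calcrl had 2 and the other 6 genes had 1 each, and 8 of the 11, for 6 genes, were bright enough to be tested. No probe set carried a member among several symbols.

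The Calca transcript is spliced either to calcitonin, the hormone of thyroid C cells that lowers blood calcium, or to the alpha form of calcitonin gene-related peptide (CGRP), a vasodilator known best from sensory neurons. Calcb encodes the beta form of CGRP, and Adm encodes adrenomedullin, a related vasodilator peptide. All of these except calcitonin signal through the class B receptor encoded by Calcrl, which reaches the cell surface only together with a receptor activity-modifying protein (RAMP): with the Ramp1 product it forms the CGRP receptor, with the Ramp2 or Ramp3 product an adrenomedullin receptor, and the complex raises cyclic AMP (cAMP) through the G protein Gs. Peptides of this family have been studied in injured peripheral nerve, where CGRP acts on Schwann cells among other cells.

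RT4D6 is 1 line from a rat tumour of Schwann cells, the glia that wrap peripheral axons, so that the values describe this line and not Schwann cells of a nerve. The cells had been treated for 48 h with either the wild type siRNA, which is specific to Sox10, or a mutant siRNA that served as the control, and no group went without an siRNA. RNA of each sample was measured on 1 Affymetrix Rat 230 2.0 array, with 2 arrays for each siRNA and 4 in all. The samples came as paired sets of cells, numbered replicate 1 and replicate 2. With 2 samples in each group, the p-values measure only the spread between these samples, and an exact two-sided permutation test of 2 arrays against 2 cannot give a p under 0.333, so that the tests below are from limma, which borrows the spread of all probe sets, except where the methods' t-test is named.

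Sox10 itself had signals of 163 and 335 with the wild type siRNA, against 2873 and 2890.1 with the mutant siRNA, a log2 fold change of -3.54 ± 0.33 (SE, limma, adjusted p = 0.0013). Here and below, a signal is the MAS5 value of a probe set in arbitrary units, and a log2 fold change is wild type minus mutant siRNA after each array was centred on its median. The median signal of the arrays was between 101.3 and 110.4 and their 25th percentile between 26.2 and 31.0, and signals near the 25th percentile lie close to background. As a measure of RNA integrity, the 3' to 5' signal ratio of Gapdh lay between 1.06 and 1.11 on the 4 arrays, and that of actin was 1.39 and 1.54 with the wild type siRNA and 1.52 and 1.87 with the mutant siRNA. All 6 Schwann cell markers with a probe set were called lower, as were 12.1% of all tested probe sets. Their summed signal, with the brightest probe set of each gene, was 2562 and 2976 with the wild type siRNA and 22934 and 16456 with the mutant siRNA. Sox10 is the siRNA's target, and it, Ngfr and Erbb3 were among the genes that the study selected as lower on these arrays. Erbb3 reached the array median only on the mutant siRNA arrays, where it was high. The count of markers was therefore partly fixed in advance and is no independent evidence. Among smooth muscle markers, 2 of 4 tested were higher, Acta2 by 2.37 and Tagln by 1.72 on the log2 scale (limma, adjusted p = 0.0182 and 0.0025), although Acta2 was no longer called with mutant siRNA replicate 1 left out (adjusted p = 0.0808) or with no intensity trend (0.078). Smtn of the same list lay the other way, with 279.8 and 400.5 with the wild type siRNA against 522 and 770.5 with the mutant siRNA (log2 fold change -0.84, limma, adjusted p = 0.0633), and was called lower with the replicate block (adjusted p = 0.0127). Des, too dim to test, had a log2 fold change of -0.87. The summed signal of the smooth muscle list was 23842 and 28629 with the wild type siRNA against 6569 and 11192 with the mutant siRNA. Tagln made up most of it (21242 and 22657 on the wild type siRNA arrays, against 5482 and 9015 on those of the mutant siRNA). None of the 6 macrophage markers was bright enough to be tested, their highest signal being 98.5. Fewer cells of a type and less RNA per cell cannot be told apart in such bulk samples.

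Calca was the member with the largest difference. All 3 of its probe sets fell with the wild type siRNA, by 6.23-fold to 9.67-fold, and they were the only member probe sets called lower, at an adjusted p under 0.05. Over all 16125 tested probe sets, 12.1% were called lower. Probe set 1369117_at had signals of 332 and 234 with the wild type siRNA, against 3051 and 2658 with the mutant siRNA. Both wild type siRNA signals lay far below both mutant siRNA signals, and yet above the array median. The group means were 283 ± 69.4 with the wild type siRNA and 2855 ± 278 with the mutant siRNA (SD, n = 2 each), and the log2 fold change was -3.27 ± 0.23 (SE, limma with Benjamini-Hochberg adjustment, adjusted p = 0.000584). The difference was 8.97-fold in the replicate 1 pair and 10.4-fold in the replicate 2 pair, and the log2 fold change ranked 63 from the lowest of all tested probe sets.

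Probe set 1370775_a_at of Calca had signals of 640.3 and 414 with the wild type siRNA, against 4374 and 2865 with the mutant siRNA, which is 6.51-fold lower (log2 fold change -2.70 ± 0.28, SE; limma, adjusted p = 0.00153). Probe set 1369116_a_at had signals of 349 and 272 with the wild type siRNA, against 2302 and 1785 with the mutant siRNA, which is 6.23-fold lower (log2 fold change -2.64 ± 0.23, SE; limma, adjusted p = 0.00126). The groups did not overlap in either. The ending _a_at is the manufacturer's mark for probes that match several transcripts of 1 gene, and which probe set reads the calcitonin form and which the CGRP form was not given in the files used here. The 1369116_a_at and 1370775_a_at probe sets differed in their log2 fold change by 0.05 in the replicate 1 pair and 0.08 in the replicate 2 pair. The log2 fold change of 1369117_at was lower than that of 1370775_a_at by 0.43 in the replicate 1 pair and 0.72 in the replicate 2 pair, a difference that was not tested. Calca stands in a list that the study selected on these same arrays, and its direction here is therefore no independent evidence. All 3 probe sets stayed called in each of the 13 other limma fits, with adjusted p-values of at most 0.0252.

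**Figure D1:**
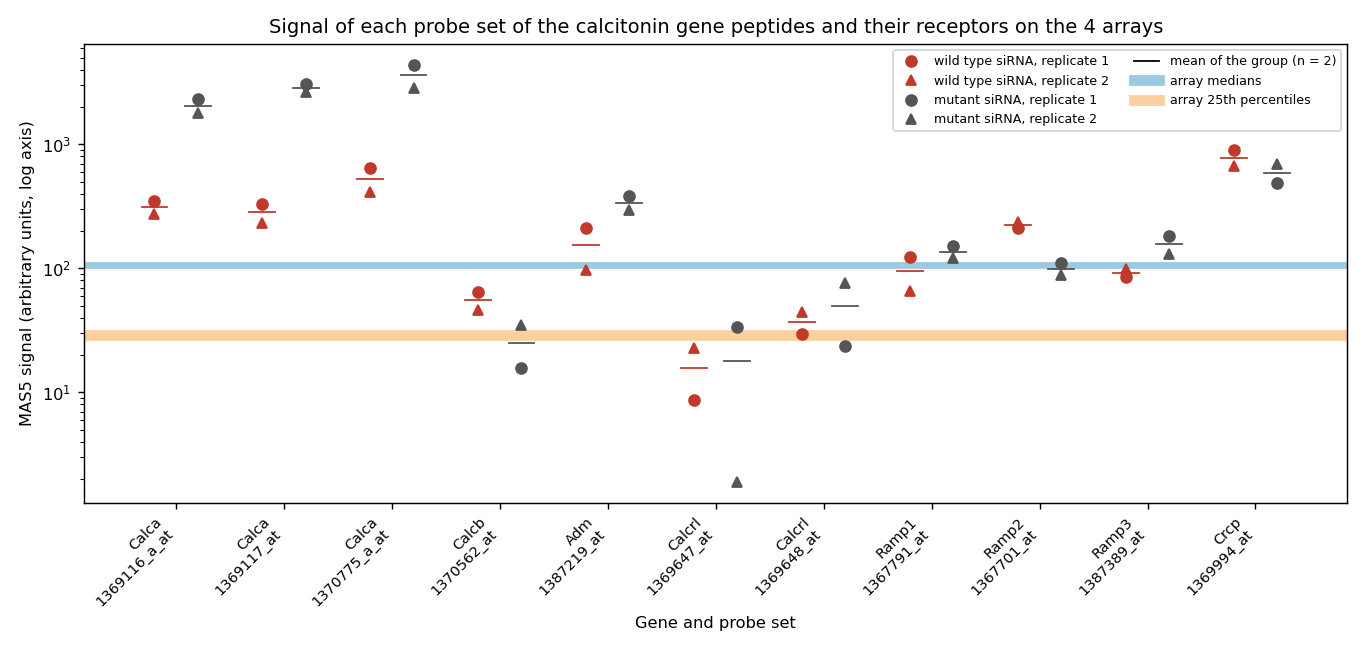
Signal (MAS5, arbitrary units, log axis) of each of the 11 probe sets on each array, with the wild type siRNA in red left of the mutant siRNA in grey; circles are replicate 1, triangles replicate 2, and short lines group means (n = 2), with the range of the array medians in blue and of the array 25th percentiles in orange. The 3 Calca probe sets lie between 234 and 640.3 with the wild type siRNA and between 1785 and 4374 with the mutant siRNA, while Calcb and both Calcrl probe sets lie below the array medians throughout.

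The sequence upstream of the Calca start site is shown because this gene carries the main change. It is the minus strand of chr1:178317530-178317779 in the rat assembly GRCr8 as annotated by RefSeq, the 250 bases before the annotated start, written 5′ to 3′. Capitals mark TGACG, the core of the cAMP response element:

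Calca: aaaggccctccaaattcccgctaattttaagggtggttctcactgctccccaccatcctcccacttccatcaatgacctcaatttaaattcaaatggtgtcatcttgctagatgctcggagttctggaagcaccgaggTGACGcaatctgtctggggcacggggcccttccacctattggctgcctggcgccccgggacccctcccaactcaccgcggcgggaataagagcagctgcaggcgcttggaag

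The TGACG lay 112 bases upstream of the start site and was looked for after the sequence had been seen. This core stood, on either strand and with no bar on overlap, in 18.2% of the 33469 RefSeq promoter windows of the same length. The full element, TGACGTCA, which reads the same on both strands, was not in this window and stood in 1.59% of all windows. The Sox core ACAAT, or ATTGT on the other strand, was not in this window either, and stood in 30.0% of all windows. Of the other members, promoter windows for Adm, Calcrl, Crcp, Ramp1 and Ramp3 were at hand, and ACAAT or ATTGT was found only in that of Calcrl, with 2 matches, 234 and 76 bases upstream. A match of letters is a description and shows neither binding nor its absence.

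Calcb, the neighbour of Calca that encodes beta-CGRP, was dim on all arrays. Its probe set 1370562_at had signals of 64.3 and 46.0 with the wild type siRNA, against 15.7 and 34.7 with the mutant siRNA. The wild type siRNA arrays were the higher ones and the groups did not overlap, but all 4 signals were under the array medians and that of mutant siRNA replicate 1 was under the 25th percentile of its array. The probe set was too dim to be tested, and in a fit with no filter its log2 fold change of 1.30 had an adjusted p of 0.480 (limma). The difference was 2.07 on the log2 scale in the replicate 1 pair and 0.53 in the replicate 2 pair.

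Adm, the adrenomedullin gene, had signals of 210.0 and 97.7 with the wild type siRNA, against 383 and 293 with the mutant siRNA. Both wild type siRNA signals were below both mutant siRNA signals, although the wild type siRNA replicates were themselves apart by more than the mutant ones. The means were 154 ± 79.4 with the wild type siRNA and 338 ± 63.4 with the mutant siRNA (SD, n = 2 each), and the log2 fold change of -1.15 ± 0.40 (SE) did not pass (limma, adjusted p = 0.0652). With the replicate number as a block, so that each wild type siRNA array was set against its own mutant siRNA array, Adm was called lower (limma with a replicate block, adjusted p = 0.014). That made 4 member probe sets called lower with the block, where 16.0% of all tested probe sets were, and 1 called higher, where 20.5% of all were. Adm was also called without wild type siRNA replicate 1, where its log2 fold change was -1.67 (adjusted p = 0.0121), and it was -0.62 without wild type siRNA replicate 2 (adjusted p = 0.205).

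The receptor gene Calcrl was dim in both groups, with every signal under the median of its array. Probe set 1369647_at had signals of 8.7 and 22.8 with the wild type siRNA, against 33.9 and 1.9 with the mutant siRNA, and 1369648_at had 29.3 and 44.1 with the wild type siRNA, against 23.5 and 75.9 with the mutant siRNA. The groups overlapped in both probe sets, and in each the pairs of arrays differed in direction. Neither was tested, and a difference in the receptor could not be detected at these signals.

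Of the 3 receptor partners, Ramp2 was called higher, and Ramp1 and Ramp3 were not called. Ramp2, whose product turns the Calcrl receptor into an adrenomedullin receptor, had signals of 209.7 and 238 with the wild type siRNA, against 111 and 88.2 with the mutant siRNA. The groups did not overlap, and the signal with the mutant siRNA was at about the array median. The means were 224 ± 19.7 with the wild type siRNA and 99.6 ± 16.1 with the mutant siRNA (SD, n = 2 each), a 2.38-fold rise (log2 fold change 1.25 ± 0.38, SE; limma, adjusted p = 0.0414). It was the only member probe set called higher, as were 14.6% of all tested probe sets. The call was lost without wild type siRNA replicate 1 (adjusted p = 0.0918), wild type siRNA replicate 2 (0.127), mutant siRNA replicate 1 (0.0807) or mutant siRNA replicate 2 (0.15), and with a filter at the 25th percentile (0.0558) or no filter (0.0941). Its log2 fold change stayed between 1.04 and 1.44 under every alternative that gave a value.

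Ramp1, the partner that makes the CGRP receptor, had signals of 123.5 and 65.4 with the wild type siRNA, against 150.2 and 121 with the mutant siRNA. The groups overlapped, and the log2 fold change of -0.50 ± 0.50 (SE) was no larger than its error (limma, adjusted p = 0.484). Ramp3, the other adrenomedullin receptor partner, had signals of 85.0 and 98.2 with the wild type siRNA, against 182 and 129.6 with the mutant siRNA. The groups did not overlap, but Ramp3 reached the array median only on the mutant siRNA arrays and so entered the test through the group where it was high, and its log2 fold change of -0.67 ± 0.45 (SE) was not called (limma, adjusted p = 0.291). Counting every tested member, the groups did not overlap for 5 probe sets that were lower with the wild type siRNA (3 of Calca, Adm and Ramp3) and for 1 that was higher (Ramp2). Over all tested probe sets this held for 31.9% that were lower and 35.8% that were higher.

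**Figure D2:**
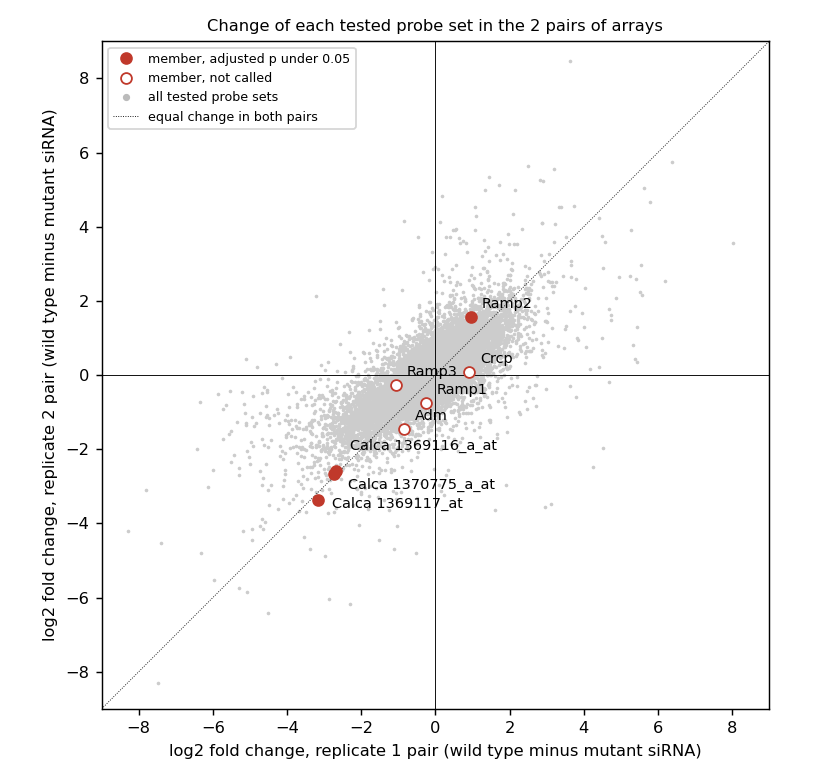
Log2 fold change (wild type minus mutant siRNA) of each tested probe set in the replicate 1 pair of arrays (horizontal) and in the replicate 2 pair (vertical), with the 8 tested member probe sets in red, filled where the adjusted p was under 0.05, over all 16125 tested probe sets in grey. The 3 Calca probe sets lie close to the line of equal change in both pairs at about -2.6 to -3.4, while Crcp stands at 0.91 in the replicate 1 pair and 0.07 in the replicate 2 pair.

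Markers of cell types known for these peptides and receptors were read beside them. Of 9 neuronal markers with a probe set 3 were bright enough to be tested and none of these was called in the limma fit, with 0 at an unadjusted p under 0.05 and 1 in the methods' t-test before adjustment. The summed signal of the 9 genes was 743 and 845 with the wild type siRNA and 1123 and 985 with the mutant siRNA. Of 6 endothelial markers, cells in which Calcrl and Ramp2 are known to be high, only Tek was tested. Its signals were 138 and 142 with the wild type siRNA and 114 and 109.9 with the mutant siRNA (limma, adjusted p = 0.490), with a p under 0.05 in the methods' t-test before adjustment, and the summed endothelial signal was 355 and 196 with the wild type siRNA and 219 and 178 with the mutant siRNA. Of 3 thyroid epithelial markers with a probe set, Tg, which encodes thyroglobulin, was called higher by 1369744_at, with 249 and 208 with the wild type siRNA against 8.3 and 35.9 with the mutant siRNA (limma, log2 fold change 3.80, adjusted p = 0.0166). Another Tg probe set, 1370764_a_at, was too dim to test and overlapped between the groups. It had signals of 50.1 and 46.1 with the wild type siRNA, against 7.3 and 55.0 with the mutant siRNA. Tg was near background on the mutant siRNA arrays and entered the test through the wild type siRNA arrays, which leaves its fold change uncertain, it was not called with wild type siRNA replicate 1 left out (adjusted p = 0.122), and the other 2 thyroid markers were at 46.0 or lower on all arrays. The Schwann cell markers moved with Calca. Of the smooth muscle markers, Tagln, Acta2, Myh11 and Cnn1 lay on the same side as Ramp2, and Smtn and Des did not. Only Tagln and Acta2 of these were called. The part of any of these markers in the results for Calca and Ramp2 was not tested.

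Crcp encodes a small protein that was named as a receptor component needed for CGRP signalling and that is also a subunit of RNA polymerase III, the enzyme that makes transfer RNA and 5S ribosomal RNA. It had signals of 895 and 666 with the wild type siRNA, against 487 and 690.3 with the mutant siRNA. The groups overlapped, with mutant siRNA replicate 1 the lowest of the 4, and the log2 fold change of 0.49 ± 0.25 (SE) was not called (limma, adjusted p = 0.174). The other subunits of RNA polymerase III had 15 of 17 genes with a probe set, and all 15 were tested: 6 were higher, 1 was lower and 8 were not called, where 14.6% of all tested probe sets were higher and 12.1% lower, with a median log2 fold change of 0.38, against 0.13 over all tested probe sets. Those with the largest rise were Polr3k (0.97, limma, adjusted p = 0.0155), Polr3b, the second largest subunit (0.94, adjusted p = 0.0265), Polr1d (1371351_at, 0.90, adjusted p = 0.00737) and Polr2k (0.89, adjusted p = 0.011). The other tested probe set of Polr1d, 1388404_at, was at 0.27 and was not called (limma, adjusted p = 0.251). The lower one, named after its value was seen, was Polr3d (-0.87, limma, adjusted p = 0.0131). The brightest subunits that were not called were Polr2f (0.43, limma, adjusted p = 0.0794) and Polr2l (-0.14, adjusted p = 0.561), and the replicate block added Polr2f to the higher ones (adjusted p = 0.0369).

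The count of higher subunits was 3 and 5 with replicate 1 or 2 of the wild type siRNA left out, and 1 and 2 with replicate 1 or 2 of the mutant siRNA left out. It was 2 with no intensity trend, where Polr3k (limma, adjusted p = 0.0562) and Polr2k (0.0608) were among those lost, and Polr3d was not called without mutant siRNA replicate 1 (limma, adjusted p = 0.072) or 2 (0.0698). Among the 5 genes named, only Polr1d stayed called with each array left out in turn. This held for 1371351_at alone, as the other Polr1d probe set was not called with all arrays.

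Other genes of the calcitonin family, Iapp and Calcr, were looked at next, together with the receptor genes Gpr182 and Ackr3. Of Iapp (amylin), Calcr (the calcitonin receptor), Gpr182 and Ackr3, only Ackr3 was bright enough to be tested, and the other 3 had signals between 2.1 and 91.8. Ackr3 encodes an atypical receptor that takes up the chemokine CXCL12 and also binds adrenomedullin. It had signals of 51.9 and 59.5 with the wild type siRNA, against 389 and 543 with the mutant siRNA. Both wild type siRNA signals were under the array median, so that Ackr3 entered the test only through the mutant siRNA arrays, where it was high, and was not tested with a filter on all 4 arrays. The groups did not overlap, and the log2 fold change was -2.97 ± 0.37 (SE, limma, adjusted p = 0.0024), a call that held with each array left out in turn. Ackr3, under its older name Cmkor1, was in the study's list selected on these arrays, so its direction is no independent evidence either.

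Enzymes that cut and finish peptide precursors, and proteins of the dense core vesicles that store them, were mostly dim: 6 of 17 genes with a probe set were tested and the other 11 had signals of 85.7 or lower. Only Cpd, which encodes a carboxypeptidase of the trans-Golgi network, was called. It had signals of 2310.4 and 3031 with the wild type siRNA, against 5049 and 3976 with the mutant siRNA (limma, log2 fold change -0.68, adjusted p = 0.0475). Cpd was not called with mutant siRNA replicate 1 (adjusted p = 0.246), mutant siRNA replicate 2 (0.0694) or wild type siRNA replicate 1 (0.2) left out, with no filter (0.0638) or with no intensity trend (0.131). Cpe, the carboxypeptidase that trims most neuropeptide precursors, had signals of 7057 and 9245 with the wild type siRNA, against 6551 and 6097 with the mutant siRNA. It was not called (log2 fold change 0.43, limma, adjusted p = 0.111), but was called higher with the replicate block (adjusted p = 0.0324) and without wild type siRNA replicate 1 (adjusted p = 0.0496). Furin, a precursor-cleaving protease, had a log2 fold change of -0.38 (limma, adjusted p = 0.259), and the median over the 6 tested genes was 0.03.

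Of the peptidases known to break these peptides down, 4 of 7 were tested, none was called by limma, with 0 at an unadjusted p under 0.05 there and in the methods' t-test, and their median log2 fold change was 0.27. Ide, which encodes insulin-degrading enzyme, had a log2 fold change of 0.28 in its brightest probe set (limma, adjusted p = 0.263), while another of its probe sets was called higher (1387652_at, 0.95, adjusted p = 0.0134) and the third was at 0.08. That probe set was no longer called with mutant siRNA replicate 1 (adjusted p = 0.0529) or mutant siRNA replicate 2 (adjusted p = 0.0778) left out. Mme, which encodes neprilysin, had signals of 239 and 339.6 with the wild type siRNA, against 304 and 394 with the mutant siRNA, and the groups overlapped (limma, adjusted p = 0.635).

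Genes of the Gs and cAMP pathway downstream of these receptors were called in both directions. Of 38 genes with a probe set 25 were tested, and 5 were called higher, 4 lower and 16 not called. The shares over all tested probe sets were 14.6% higher and 12.1% lower. The median log2 fold change of the list was 0.32. Prkar1a was counted as higher and Creb1 as lower, although each also had a probe set called the other way, as given below. Pde3b, which encodes a phosphodiesterase that breaks down cAMP, had signals of 679 and 445 with the wild type siRNA, against 164 and 184 with the mutant siRNA (limma, log2 fold change 1.74, adjusted p = 0.0052). Akap12, an anchor for protein kinase A, was higher by 1.07 on the log2 scale (adjusted p = 0.00805, limma). On the other side, Pkig, an inhibitor of protein kinase A, had signals of 2078 and 2478 with the wild type siRNA, against 6687 and 5661 with the mutant siRNA (limma, log2 fold change -1.36, adjusted p = 0.0031). Prkar2b, a regulatory subunit of the same kinase, was lower by a log2 fold change of -1.05 (limma, adjusted p = 0.0139). With no intensity trend Akap12 was not called (adjusted p = 0.0562) and 2 genes of the list were called higher. The calls of Pde3b, Akap12 and Pkig held with each array left out in turn, and that of Prkar2b did not with mutant siRNA replicate 1 (adjusted p = 0.0715) or 2 (0.0708) left out.

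The 2 brightest genes of the pathway that were not called were Gnas and Prkar2a. Gnas, which encodes the Gs alpha subunit, had signals of 14032.5 and 14324 with the wild type siRNA, against 11779 and 10623 with the mutant siRNA. Its groups did not overlap, and it was not called (log2 fold change 0.42, limma, adjusted p = 0.0584) except with the replicate block (adjusted p = 0.0084). Prkar2a had a log2 fold change of -0.40 in its brightest probe set (limma, adjusted p = 0.221). Its other tested probe set, 1371059_at, lay the other way at 0.50 and was not called either (limma, adjusted p = 0.185). With the block, 8 genes of the list were called higher and 4 lower. Without one array in turn, the genes called higher numbered 3 (wild type siRNA replicate 1), 5 (wild type siRNA replicate 2), 3 (mutant siRNA replicate 1) and 2 (mutant siRNA replicate 2), and those called lower 3, 4, 1 and 1 in the same order.

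Probe sets of 1 gene disagreed in this list, as was noticed after their values were seen. Creb1, which encodes the transcription factor CREB that protein kinase A activates, was called lower by 1375655_at (log2 fold change -1.05, limma, adjusted p = 0.0159) and higher by 1369708_a_at (1.22, adjusted p = 0.0153). Prkar1a was called higher by 1386905_at (0.75, limma, adjusted p = 0.0109) and lower by 1388375_at (-1.09, adjusted p = 0.0077) and 1373951_at (-0.55, adjusted p = 0.0421). None of these 5 calls held with each array left out, 4 being lost without mutant siRNA replicate 1 (adjusted p = 0.0542 to 0.228) and that of 1386905_at without mutant siRNA replicate 2 (0.0699). For these 2 genes the arrays gave no single direction.

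Among genes known to respond to cAMP, 11 of 15 were tested, 4 were called higher, 1 lower and 6 not called, with 14.6% higher and 12.1% lower over all tested probe sets and a median log2 fold change of 1.14 in the list. Rgs2, which encodes a regulator of G protein signalling, had signals of 912 and 2730.4 with the wild type siRNA, against 201.5 and 254 with the mutant siRNA. Its groups did not overlap (limma, log2 fold change 2.88, adjusted p = 0.0047), and its other tested probe set, 1368144_at, differed in the same direction (3.17, adjusted p = 0.0039). Per1, a clock gene, had signals of 123 and 240.6 with the wild type siRNA, against 18.4 and 62.1 with the mutant siRNA (limma, log2 fold change 2.42, adjusted p = 0.0498), and the lowest of these lay under the 25th percentile of its array. Per1 reached the array median only on the wild type siRNA arrays and so entered the test through the group where it was high, and with no filter it was not called (adjusted p = 0.0759). Junb, a subunit of the transcription factor AP-1, was higher by 1.14 on the log2 scale (adjusted p = 0.0103, limma). Nr4a3, an orphan nuclear receptor, was higher by 1.16 (1369217_at, limma, adjusted p = 0.0438). The other tested probe set of Nr4a3, 1369067_at, was at 0.16 (limma, adjusted p = 0.854). A probe set of Nr4a3 too dim to test, 1393389_at, lay the other way at -0.83, and its groups did not overlap. The gene called lower was Sik1, a kinase that restrains CREB signalling (1368597_at, -1.04, limma, adjusted p = 0.0415), named after its value was seen. Its other tested probe set, 1368596_at, overlapped between the groups and was not called (-0.77, limma, adjusted p = 0.23).

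Fos, another AP-1 subunit, had signals of 2416 and 3404 with the wild type siRNA, against 2179 and 802 with the mutant siRNA, and its log2 fold change of 1.20 was not called (limma, adjusted p = 0.0673) except with the replicate block (adjusted p = 0.0105) and without mutant siRNA replicate 1 (0.017) or wild type siRNA replicate 1 (0.0346). Nr4a1 overlapped between the groups (log2 fold change -0.33, limma, adjusted p = 0.392). Only the call of Rgs2 held with each array left out: that of Junb was missing with mutant siRNA replicate 1 left out (adjusted p = 0.0647), that of Per1 without any array other than mutant siRNA replicate 2 (0.0643 to 0.214), that of Nr4a3 without any other than wild type siRNA replicate 1 (0.101 to 0.193), and that of Sik1 without any other than wild type siRNA replicate 2 (0.086 to 0.246). With the signals as deposited, with no filter or with no intensity trend, 2 genes of this list were called higher, and 0 had an unadjusted p under 0.05 in the methods' t-test.

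**Figure D3:**
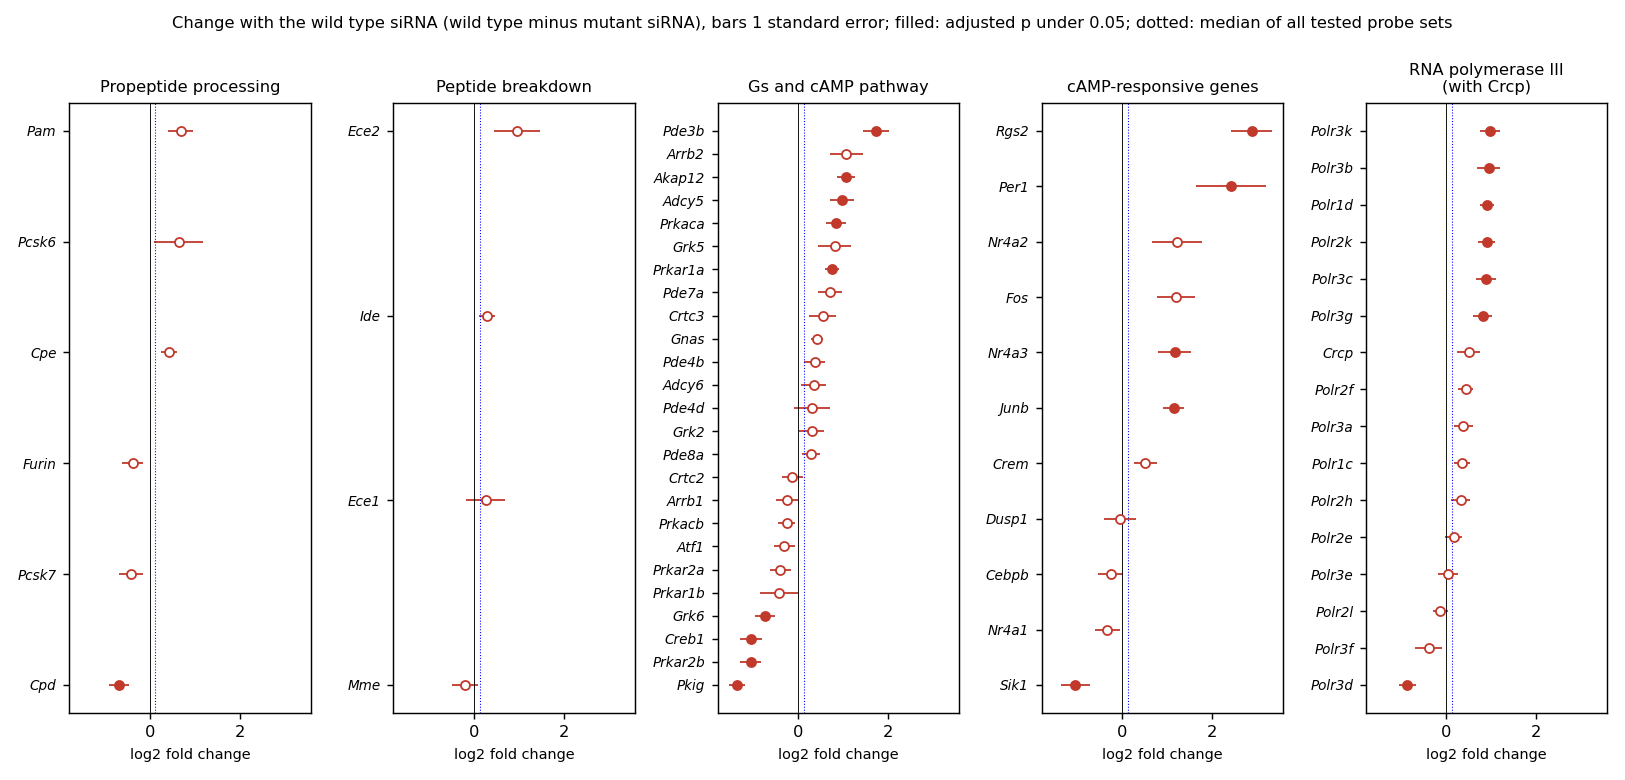
Log2 fold change (horizontal, wild type minus mutant siRNA, bars 1 SE) of the tested genes of 5 lists, 1 probe set for each gene, with filled points where the adjusted p was under 0.05 and a dotted line at the median of all tested probe sets (0.13). The called genes of the Gs and cAMP list lie on both sides of 0, and Crcp stands among the RNA polymerase III subunits at 0.49.

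The genes whose pattern over the 4 arrays was nearest to that of Calca were found by the root mean square difference between log2 signals, each centred on its own mean, from the mean of the 3 Calca probe sets. Among 12689 probe sets with 1 symbol, Fam181b was the nearest, with a difference of 0.0425, followed by Notch1 (0.12), B3galt5 (0.19), Egln3 (0.191) and Rab38 (0.205). For scale, the 3 probe sets of Calca differed from each other by 0.132, 0.324 and 0.327 on this measure. Fam181b had signals of 696 and 523 with the wild type siRNA, against 5094 and 4064 with the mutant siRNA (limma, log2 fold change -2.84, adjusted p = 0.00094). Notch1, a receptor that regulates Schwann cell generation and dedifferentiation, had 435 and 274 with the wild type siRNA, against 2725.5 and 1980.1 with the mutant siRNA (limma, log2 fold change -2.67, adjusted p = 0.0015). With 4 arrays in 2 groups, likeness on this measure is mostly a like difference between the siRNAs, and it is given as a description. Notch1, Rab38 and Egln3 were in the list that the study selected on these arrays.

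Calca lies in a stretch of rat chromosome 1 in which the nearest genes can be read beside it, and the order was taken from the RefSeq annotation of GRCr8. Of the 10 nearest genes with a probe set, 5 on each side, 9 had a tested one, and among their 11 tested probe sets 1 was called lower and 2 higher, close to the shares over all tested probe sets (12.1% lower, 14.6% higher). On one side, in order from Calca, were Pde3b, Psma1, Copb1, Rras2 and Spon1. Pde3b was higher, as above, Psma1 (0.20) and Copb1 (0.16) were not called, and Rras2, a small GTPase, was called higher by 1382058_at (0.93, limma, adjusted p = 0.0168) and not by 1372133_at (0.59, adjusted p = 0.0676). With mutant siRNA replicate 1 left out, Rras2 was not called by either (adjusted p = 0.104 and 0.292), nor with no intensity trend (0.0549 and 0.133), and with the replicate block it was called by 1372133_at too (adjusted p = 0.0369).

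Spon1, which encodes the extracellular matrix protein F-spondin, was the only neighbour called lower. It had signals of 156 and 133.5 with the wild type siRNA, against 1418 and 682.5 with the mutant siRNA (limma, log2 fold change -2.69 ± 0.36, SE, adjusted p = 0.0028), and the groups did not overlap. Spon1 too was in the study's own list. It lay beyond 4 genes that were not lower. On the other side were Calcb, too dim to test, then Sox6, C1h11orf58, Rps13 and Pik3c2a, with log2 fold changes of the tested probe sets between -0.27 and 0.73 and none called.

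**Figure D4:**
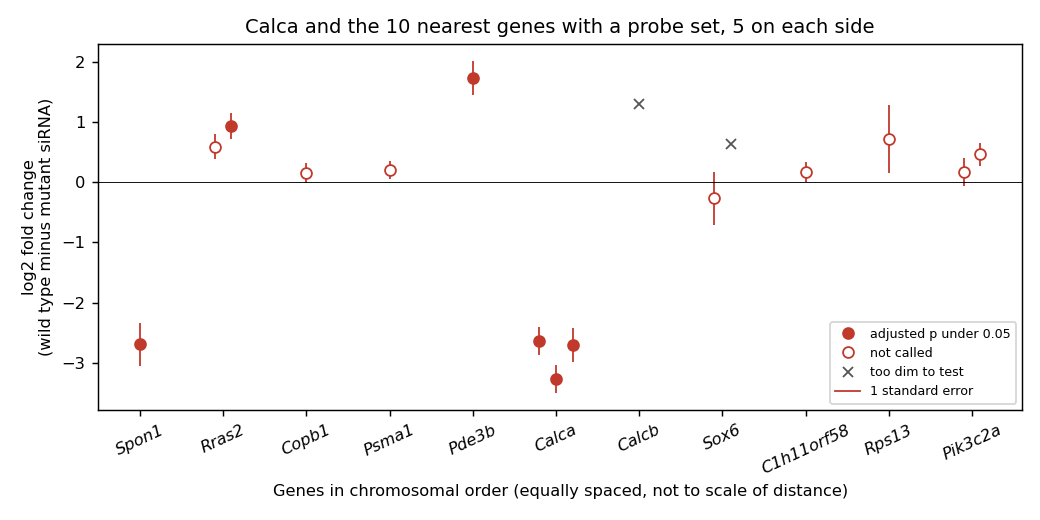
Log2 fold change (vertical, wild type minus mutant siRNA, bars 1 SE) of the probe sets of Calca and of the 10 nearest genes with a probe set, in chromosomal order and equally spaced, with filled points where the adjusted p was under 0.05, open points where it was not, and crosses for probe sets too dim to test. Calca at about -2.6 to -3.3 stands between Pde3b, which was higher, and Calcb, which was untested, and only Spon1 at -2.69 was also lower.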

How the data were processed

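RNA of RT4D6 cells was hybridised to 4 Affymetrix Rat 230 2.0 arrays. The authors deposited linear intensity values, 1 MAS5 signal for each probe set, and the 2% trimmed mean of every array is 500. MAS5 is named in the submitters' processing notes and its version is not given in the sources used here. The median normalization and filters of Methods are not in these values, and no detection calls were used.

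The median log2 signal of each array was subtracted from its values. Of 31042 probe sets without controls, 16125 reached the median of the array on 2 or more arrays and entered the fit (limma 3.58.1 under R 4.3.3, with an intensity trend in eBayes and Benjamini-Hochberg adjustment over all tested), and an adjusted p under 0.05 was called. On this log2 scale the median fold change of all tested probe sets was 0.13, against 0.08 after quantile normalization and 0.05 in the deposited scaling. The number of arrays limits the precision. Gene symbols came from GEO's platform annotation of 2016, where 20826 probe sets had 1 symbol, 436 several and 9780 none, and those with several were not used.

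The members, the lists and the tests were chosen with earlier results of these data known. The text names each member probe set, in each list the 4 called genes with the largest change and the 2 brightest not called, Sox10, and the 5 genes most like Calca; marker lists are mostly given as counts. A list has 1 probe set for each gene, the brightest tested one. Same-numbered arrays were taken as pairs because the submitters' design speaks of paired cells, and their deviations from the group means correlated at 0.14. The alternatives were a replicate block, the deposited scaling, quantile normalization, a floor or a pseudocount at the 25th percentile, 3 other filters, no intensity trend, the methods' t-test and each array left out.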

Additional observations from a re-analysis of the deposited data

How the results depend on the processing

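The 8 tested member probe sets and that of Calcb kept their direction under every alternative that gave a value, and the Calcrl probe sets did not, with log2 fold changes of -1.21 to 2.99 (1369647_at) and -0.98 to 0.67 (1369648_at). Member probe sets called lower numbered 3 and fell to 0 only in the methods' t-test with Benjamini-Hochberg adjustment, which called 0 of all probe sets lower and 2 higher, against 1386 lower and 2444 higher at an unadjusted p under 0.05, with 3 members lower and 1 higher. The 1 member called higher, Ramp2, became 0 in that t-test after adjustment, with a filter at the 25th percentile, with a filter on all 4 arrays, where it was not tested, and with no filter, and the count was 0 to 0 with each array left out in turn. Over all probe sets, 1956 were called lower and 2348 higher. These counts became 1187 and 1177 with no intensity trend, and 2580 and 3308 with the replicate block, where the members numbered 4 and 1; besides Adm and the genes given in the report, the block changed no call of a named gene. With each array left out in turn, 706 to 2519 were called lower and 924 to 2128 higher. The log2 fold change of Mme (-0.20) was between -0.49 and 0.0784 with each array left out and that of Nr4a1 (-0.33) between -0.72 and 0.0526. Signals near the 25th percentile, as those of Calcrl and Calcb, give no usable difference. The causes of these shifts were not tested.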

Other observations

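Other neuropeptide and peptide hormone genes were dim in RT4D6 cells. Of 19 with a probe set, only Edn1, which encodes the vasoconstrictor endothelin-1, was bright enough to be tested, and the other 18, among them Npy, Vip, Gal and Tac1, had signals between 2.0 and 148. Edn1 had signals of 275 and 489.7 with the wild type siRNA, against 87.9 and 294 with the mutant siRNA. The groups overlapped, and the log2 fold change of 1.27 was not called (limma, adjusted p = 0.115), although it was with the replicate block (adjusted p = 0.0067) and without mutant siRNA replicate 2 (adjusted p = 0.0304). None of the other class B receptor genes, the receptor family that Calcrl belongs to, was bright enough to be tested: 11 had a probe set, with signals between 1.4 and 105.3.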
